A study of Mus musculus with 9 samples.

Results

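Organoids labelled 4-OHT were compared with organoids labelled EtOH while both were kept in Nec-1. The comparison held 3 of the 9 samples of the series, chosen by their labels, with 2 libraries of EtOH Nec-1 and a single one of 4-OHT Nec-1. It covered 11746 of 54838 mouse genes, those with a mean of at least 1 FPKM (fragments scaled for transcript length and for the mapped fragments of the library) over the 3 libraries. Because the 4-OHT Nec-1 side has 1 library, it has no replicate check, and every value here is a description without a p-value.

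The organoids, cultures of gut epithelium that form crypt-like buds, were grown from small intestinal crypts of C57BL/6 mice carrying *Vil-CreERT2* and *Mettl3* fl/fl. They were treated for 2 days with 0.5 µM 4-OHT (4-hydroxytamoxifen), which activates the Cre recombinase, or with EtOH, its solvent, and were exposed to Nec-1 (necrostatin-1) or DMSO for 5 days. All groups shared both alleles, the EtOH libraries included, and the Villin promoter limits Cre to the epithelium. No 4-OHT library without Cre was analysed here, so an effect of 4-OHT itself and an effect of Cre cannot be told apart. The Nec-1 dose is given as 5 µM in a figure legend and as 10 µM in the methods, and whether the 2 EtOH Nec-1 libraries came from separate cultures is not stated in the sources used here.

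METTL3 is the catalytic subunit of the complex that writes N6-methyladenosine (m6A) on mRNA, a mark that influences splicing, decay and translation. RIPK1 is a kinase downstream of TNF receptors, whose activity can lead to apoptosis through caspase-8 or to necroptosis through RIPK3 and MLKL, and Nec-1 inhibits it. The comparison therefore describes how 4-OHT and EtOH organoids differed when this inhibitor was present in both arms. In the intestine, type I interferon, TNF and growth factor signals each have well known target genes in the epithelium, and these lists are followed below beside those of the cell types and of enterocyte metabolism.

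In the 7 RNA libraries FPKM summed to 450207 to 498712, and 11559 to 12038 genes reached 1 FPKM. The depth in fragments is unknown, and relative depths read from the spacing of the lowest FPKM ran from 0.853 to 1.04, where 1 stands for EtOH DMSO replicate 1. The EtOH Nec-1 libraries correlated with Pearson's r of 0.988 across the 11746 genes and the 4-OHT Nec-1 library with them at 0.946 and 0.945, a description in which the genes share libraries. *Mettl3* (ENSMUSG00000022160) was at 2.41 and 2.47 FPKM in EtOH Nec-1 and at 3.36 in 4-OHT Nec-1, so it was not lower in the library labelled 4-OHT. The values cover the whole gene, and the deleted part cannot be read from them. Directions below therefore rest on the labels, and "the 4-OHT library" means the library labelled 4-OHT Nec-1. Epithelial markers such as *Epcam* (481 and 492 FPKM in EtOH Nec-1, 431 in 4-OHT Nec-1) and *Cdh1* (119 and 127, then 202) were abundant, whereas none of 14 fibroblast, muscle and endothelial markers reached the minimum and their sum was 0.462 to 0.958 FPKM per library over all 7. Of 16 immune markers 3 reached it (*Itgam*, *Cd68* and *Lyz2*), and *Cd4*, *Itgax* and *Nkg7* were listed at 0 throughout. The immune list summed to 5.62 to 6.22 FPKM in EtOH Nec-1 and 10.5 in 4-OHT Nec-1, with the macrophage marker *Cd68* called higher (1.78 and 1.39, then 6.14), and its part in the interferon and TNF results was not tested.

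A gene was called when the 4-OHT library lay at least 1 log2 unit above, or below, each EtOH Nec-1 library on the log2(FPKM + 1) scale, which understates changes of genes near or under 1 FPKM. By this rule 498 genes were higher (4.24% of 11746) and 228 were lower (1.94%). The EtOH Nec-1 libraries themselves lay that far apart for 136 genes (1.16%). Ignoring size, 49.9% of genes lay above each EtOH library and 38.8% below each, and the median of all differences was 0.067. Centring each library on its median, which moved that median by over 0.1 to -0.068, gave 345 higher and 317 lower, so that 52.1% instead of 68.6% of the calls were higher. Just inside the threshold stood *Arhgef5* with a difference of 1.001 and *Gm15793* with -1.00003, and just outside it *Ddx28* with 0.999 and *Gm14044* with -0.997. Among the called genes, 72 of the 498 were under 1 FPKM in both EtOH libraries and 67 of the 228 were under 1 FPKM in the 4-OHT library. Predicted, tRNA or unnamed genes made up 35 of the higher and 63 of the lower ones.

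The 15 named genes with the largest positive differences held interferon-stimulated genes (*Isg15*, *Ifit1bl1*, *Rtp4*, *Oas1a* and *Oasl2*), the epithelial injury marker *Ly6a* and the antibacterial lectin *Reg3g*. *Acta1*, which encodes skeletal muscle actin, was at 68.7 and 69.7 FPKM in EtOH Nec-1 and 484 in 4-OHT Nec-1, 6.99-fold higher. In DMSO *Acta1* was at 12.8 and 16.3 in EtOH and 53.9 and 53.6 in 4-OHT, so the Nec-1 value stood far above all other libraries. *Capg*, an actin capping protein, was at 7.13 and 6.98 in EtOH Nec-1 against 45.1 in 4-OHT Nec-1, and *Tnfsf9*, the 4-1BB ligand, at 1.87 and 1.75 and 15.2. Both genes were also far higher in the 4-OHT than in the EtOH libraries in DMSO. *Ildr1* was at 3.45 and 3.71 in EtOH Nec-1 against 25.6 in 4-OHT Nec-1, and the mitochondrial ribosomal gene *Mrps34* at 9.99 and 10.2 and 69.0. *Kctd12* was listed at 0 in all 4 EtOH libraries and at 5.32 to 5.73 in the 3 4-OHT libraries, and no fold is given for it. *Myl12b* (ENSMUSG00000117098, a symbol that another identifier also carries) was listed at 0 in all 4 EtOH libraries and in 1 of the 4-OHT DMSO libraries and is uncertain, as is the small nucleolar RNA *Snord14d*, whose sequence lies within a host gene.

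Among the 15 named genes with the largest negative differences, most encode metabolic enzymes or carriers of the absorptive cell, with the carboxylesterase *Ces1d* (103 and 107 FPKM in EtOH Nec-1, 8.31 in 4-OHT Nec-1, 12.7-fold lower) and the gluconeogenic enzyme *Fbp1* (80.5 and 81.9, then 8.82, 9.21-fold lower) near the top. *Akr1c14*, an aldo-keto reductase, was at 92.2 and 92.8 and then 11.7. *Sult1b1*, a sulfotransferase, was at 74.8 and 72.6 and then 12.6. *Bco2*, which cleaves carotenoids, was at 29.6 and 29.4 and then 4.72. The water channel *Aqp1* (24.5 and 24.6, then 3.87) and *Dao*, D-amino acid oxidase (6.53 and 5.35, then 0.289), completed the pattern. In each of these genes except *Dao* the EtOH libraries lay close together. For *Dao* they were 0.25 log2 units apart, beside a median gap of 0.093 over all genes. *Smim10l1* had the largest negative difference, with 19.9 and 21.3 FPKM in EtOH Nec-1 and 0.527 in 4-OHT Nec-1, beside 3.97 and 6.08 in 4-OHT DMSO. *Hnf4aos*, an antisense transcript at the *Hnf4a* locus, was at 5.32 and 6.32 in EtOH Nec-1 against 0.293 in 4-OHT Nec-1. *Hnf4a* itself, a master regulator of enterocyte genes, was at 163 and 155 and 154, and the library kit does not mark strand, so reads of the pair cannot be told apart where they overlap.

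The same 11746 genes were set beside the comparison without Nec-1, which has 2 libraries a side and shares no library with the one under Nec-1. There 511 genes (4.35%) were at least 1 log2 unit higher in all 4 pairings of a 4-OHT with an EtOH DMSO library and 270 (2.3%) lower. Of the 498 genes called higher under Nec-1, 342 (68.7% of 498 and 66.9% of 511) were also called higher without it, and of the 228 lower genes 140 (61.4% of 228 and 51.9% of 270). By direction alone, 474 of the 498 (95.2%) were higher in all 4 DMSO pairings, beside 40.3% of all genes, and 205 of the 228 (89.9%) were lower, beside 31.7%. Across genes the mean differences under and without Nec-1 had Pearson's r of 0.78, given as a description since genes are not independent. Both differences under Nec-1 lay below all 4 DMSO differences for 18.3% of genes and above all 4 for 22.0%, and the gene lists below are read against these shares. Calls in the lists are likewise read against the 4.24% of all genes called higher and the 1.94% called lower. Directions are read against the 49.9% of all genes above each EtOH library and the 38.8% below each.

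**Figure D1:**
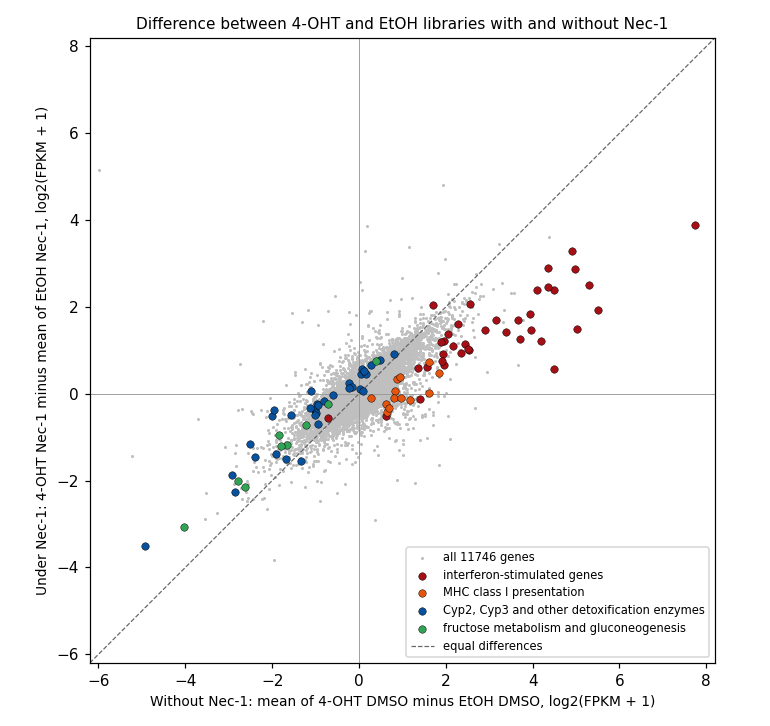
Mean difference between libraries labelled 4-OHT and EtOH on the log2(FPKM + 1) scale, without Nec-1 on the horizontal axis and under Nec-1 on the vertical axis, for 11746 genes (grey), with members of 4 lists coloured and a dashed line at equal differences. Interferon-stimulated genes reach 7.75 without and 3.89 under Nec-1 and lie mostly to the right of the line, MHC class I genes lie between -0.41 and 0.74 under Nec-1, and the fructose and detoxification genes lie mostly in the lower left.

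Interferon-stimulated genes held more called genes than any other list. The antiviral effectors *Isg15*, *Ifit1*, *Ifit3*, *Oas1a*, *Oasl2*, *Rsad2* and *Bst2*, the interferon-responsive factors *Stat2*, *Irf7* and *Irf9* and 16 further genes were all at least 1 log2 unit higher in the 4-OHT library than in each EtOH Nec-1 library. Of 60 genes in the list 59 were in the table and 38 reached the minimum, 11 of them through the 4-OHT library alone. Of these 38, 26 were called higher and 0 lower, beside 4.24% and 1.94% of all genes. The median difference was 1.39, and 35 lay above each EtOH library, where 49.9% of all genes did. These counts and the median include the 11 that reached the minimum through the 4-OHT library alone. With no minimum, 54 of the 59 lay above each and 4 below each. The list summed to 432 and 472 FPKM in EtOH Nec-1, 891 in 4-OHT Nec-1, and 2620 and 3426 in 4-OHT DMSO.

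*Isg15* (ENSMUSG00000035692), a ubiquitin-like modifier, was at 0.557 and 1.33 FPKM in the EtOH Nec-1 libraries and at 27.3 in 4-OHT Nec-1, a difference of 3.60 and 4.18 log2 units from each. Its mean in EtOH Nec-1 was 0.944 FPKM, so it reached the minimum through the 4-OHT library alone. *Ifit3*, *Oasl2*, *Rsad2* and *Rtp4* did so too, with EtOH Nec-1 means of 0.697, 0.566, 0.280 and 0.108. *Ifit1*, which binds foreign RNA ends, was at 1.63 and 1.43 and then 12.4 (2.34 and 2.46). *Oas1a*, a sensor that activates RNase L, was at 1.58 and 2.36 and then 21.0 (2.71 and 3.09). In all 3 genes the 4-OHT library lay far above both EtOH libraries, and for *Isg15* the EtOH values, near the low end of the scale, were themselves apart. *Stat2* was at 2.95 and 2.59 and then 10.4 and *Irf7* at 2.00 and 1.503 and then 8.74. STAT2 carries the signal of the type I interferon receptor, and IRF7 amplifies it. *Irf9*, the DNA-binding partner of STAT2, was at 1.12 and 1.52 in EtOH Nec-1 against 8.56 in 4-OHT Nec-1, above the 7.72 and 8.15 of 4-OHT DMSO. The EtOH libraries differed most for *Trim25*, an E3 ligase, at 5.63 and 14.8 FPKM in EtOH Nec-1 and 32.1 in 4-OHT Nec-1, and its call was lost with median centring. The 3 listed genes that lay below each EtOH library were the abundant *Ifitm2* (212 and 219, then 147), *Ifi35* (28.0 and 25.3, then 18.4) and *Samd9l* (10.02 and 9.97, then 9.15).

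The difference was smaller than without Nec-1 for nearly the whole list. In 35 of the 38 members both differences under Nec-1 lay below all 4 DMSO differences, and in 2 above them, beside 18.3% and 22.0% of all genes. The median was 2.73 without Nec-1, where 36 of the 38 were called higher. *Ifitm3* (ENSMUSG00000025492), which blocks viral entry, showed the widest gap. It was at 11.3 and 12.9 FPKM in EtOH DMSO and 254 and 333 in 4-OHT DMSO, and at 8.13 and 8.96 in EtOH Nec-1 against 13.1 in 4-OHT Nec-1, a mean difference of 4.48 without and 0.57 under Nec-1. *Zbp1* (ENSMUSG00000027514), a nucleic acid sensor upstream of RIPK3, stayed below the minimum, at 0.0805 and 0.0616 in EtOH Nec-1 against 0.891 in 4-OHT Nec-1. *Slfn4* (0.117 and 0.415, then 1.42, beside 30.6 and 56.6 in 4-OHT DMSO) and *Trim30a* (0.0430 and 0.127, then 0.325, beside 9.72 and 16.5) were below it as well. That the difference of the differences exceeds replicate error was not tested, since 1 group has 1 library.

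**Figure D2:**
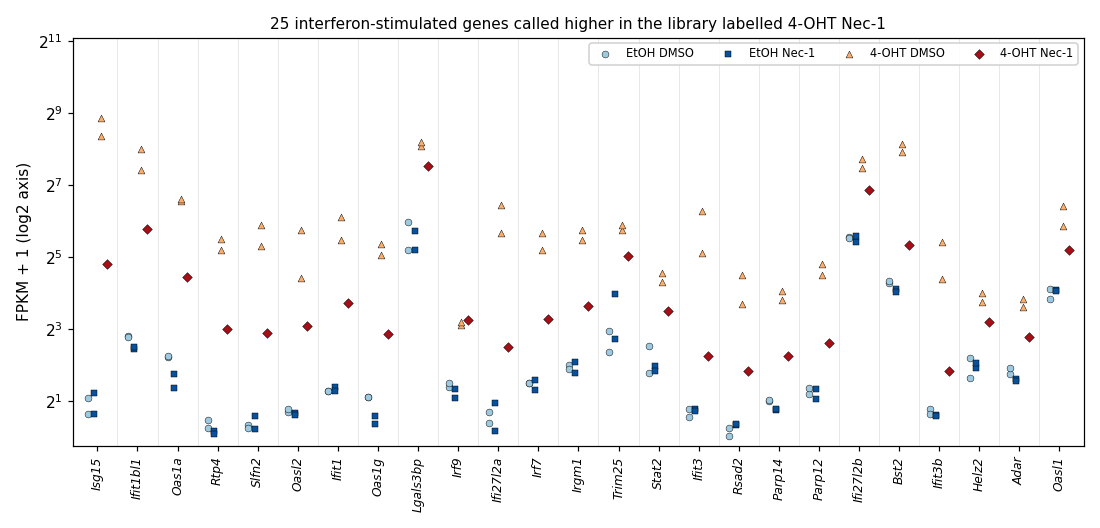
FPKM + 1 on a log2 axis in each of the 7 libraries for 25 of the interferon-stimulated genes called higher under Nec-1, ordered by their difference. Each symbol is 1 library, and for all 25 genes the 4-OHT Nec-1 diamond lies above both EtOH Nec-1 squares, while for 24 of them it lies below both 4-OHT DMSO triangles, with *Irf9* as the exception.

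To show a regulatory sequence that part of this group holds, promoters of 3 called genes with a match are printed. They read 5′ to 3′ on the strand of the gene, from 250 bases before to 50 bases after the start, from RefSeq on GRCm38.p6. The capitals mark matches to the core of the interferon-stimulated response element, searched as GAAA, any 2 bases and GAAA on both strands, so that a match can also read as its reverse complement. *Isg15* lies at chr4:156200769-156201068 on the minus strand with overlapping matches that begin 78, 72 and 66 bases before the start. *Ifit1* lies at chr19:34640639-34640938 on the plus strand with matches 104 and 85 bases before it, and *Oas1a* at chr5:120907476-120907775 on the minus strand with overlapping matches 20 and 14 bases before it.
*Isg15*: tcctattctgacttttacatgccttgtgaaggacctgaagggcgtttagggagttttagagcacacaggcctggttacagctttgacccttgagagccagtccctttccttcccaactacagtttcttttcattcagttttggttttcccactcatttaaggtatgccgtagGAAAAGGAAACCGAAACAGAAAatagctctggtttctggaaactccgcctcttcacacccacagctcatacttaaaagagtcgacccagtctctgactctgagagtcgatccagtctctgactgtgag
*Ifit1*: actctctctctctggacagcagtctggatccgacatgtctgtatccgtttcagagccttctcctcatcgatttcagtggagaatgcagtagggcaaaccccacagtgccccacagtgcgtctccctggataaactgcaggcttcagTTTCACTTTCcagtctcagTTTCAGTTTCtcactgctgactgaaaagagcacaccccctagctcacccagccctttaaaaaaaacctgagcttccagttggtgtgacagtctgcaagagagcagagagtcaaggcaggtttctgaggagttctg
*Oas1a*: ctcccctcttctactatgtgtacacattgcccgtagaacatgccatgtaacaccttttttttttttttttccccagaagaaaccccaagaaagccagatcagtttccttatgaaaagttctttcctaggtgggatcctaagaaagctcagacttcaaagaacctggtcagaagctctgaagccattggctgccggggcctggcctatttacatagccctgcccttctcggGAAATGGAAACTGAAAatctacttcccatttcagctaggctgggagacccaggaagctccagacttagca

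The motif was in 11 of the 21 interferon genes called higher that had a promoter in the table (52.4%) and in 12 of 25 listed genes that were not called (48.0%). Over all genes called higher it was in 22 of 370 promoters (5.95%), over those called lower in 6 of 141 (4.26%), and in 3.50% of 8290 promoters of genes at the minimum. Outside the interferon list it was in 11 of 349 genes called higher (3.15%), close to that background. A match describes these letters in the window and is not a bound site.

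MHC class I presentation, which is also interferon-responsive, did not follow the antiviral genes. None of its 13 measured members was called under Nec-1, 4 lay above each EtOH library and 7 below each, and the median was -0.086. Without Nec-1 all 13 were higher in all 4 DMSO pairings with a median of 0.87, and for all 13 both differences under Nec-1 lay below all 4 DMSO differences. *B2m*, the light chain of class I molecules, was at 338 and 338 FPKM in EtOH Nec-1 and 317 in 4-OHT Nec-1, but at 377 and 327 in EtOH DMSO and 572 and 669 in 4-OHT DMSO. *H2-T23* was at 16.7 and 19.9 in EtOH Nec-1 against 16.4 in 4-OHT Nec-1, and at 15.9 and 16.2 and then 34.1 and 41.4 in DMSO. In both genes the 4-OHT Nec-1 value lay below both EtOH Nec-1 libraries. *Psmb9*, an immunoproteasome subunit, was at 4.78 and 4.67 and then 3.31 under Nec-1. *H2-D1*, a class I heavy chain, had the largest positive difference of the list (0.74), at 87.1 and 86.8 and then 146. Heavy chain genes are near copies of each other, and how their reads were assigned could shift single members.

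Most measured genes of TNF signalling and NF-κB lay above each EtOH library. Of 14 measured members 12 did so and 2 lay below each, beside 49.9% and 38.8% of all genes. By the call rule 3 were higher and 2 lower, beside 4.24% and 1.94% of all genes, and the median was 0.41. *Tnf* (ENSMUSG00000024401) itself, the ligand that engages RIPK1, was at 0.497 and 1.07 FPKM in EtOH Nec-1 and 7.06 in 4-OHT Nec-1 (1.96 and 2.43 log2 units). It reached the minimum through the 4-OHT library alone. In DMSO it was at 1.00 and 1.38 in EtOH and 13.6 and 13.9 in 4-OHT, so 4-OHT Nec-1 stood between the EtOH libraries and those of 4-OHT DMSO. *Birc3*, which encodes cIAP2, was at 6.08 and 4.92 and then 14.98, and *Rela*, an NF-κB subunit, at 8.59 and 8.79 and then 19.0, a call that was lost with median centring. The chemokines *Ccl25* and *Ccl28*, which attract lymphocytes to mucosa, were lower, at 42.6 and 44.5 and then 16.3 and at 14.2 and 15.5 and then 6.37. *Cxcl10*, below the minimum, was at 0.126 and 0.160 and then 1.32.

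The machinery of RIPK1-dependent death differed by less than the call threshold, apart from its ligands. All 21 genes of the death receptor and necroptosis list reached the minimum, with *Tnf* called higher, *Tnfsf10* lower, 15 above each EtOH library, 4 below each and a median of 0.25. *Ripk1* (ENSMUSG00000021408) was at 3.47 and 4.03 FPKM in EtOH Nec-1 and 7.84 in 4-OHT Nec-1 (0.81 and 0.98 log2 units). *Mlkl*, the necroptosis effector, was at 3.56 and 3.95 and then 7.85, and *Ripk3* at 28.7 and 32.4 and then 45.2. Each of these 3 kinase or effector genes lay above both EtOH libraries. *Tradd* was at 21.7 and 19.5 and then 38.1, *Cflar*, which encodes the caspase-8 inhibitor cFLIP, at 3.27 and 3.38 and then 4.12, and *Casp8* at 49.98 and 50.4 and then 43.4. *Tnfsf10*, which encodes the death ligand TRAIL, was at 3.76 and 3.79 in EtOH Nec-1 against 0.570 in 4-OHT Nec-1, 6.62-fold lower, while in 4-OHT DMSO it was at 3.90 and 4.15. Of 20 measured caspases, BCL2 family members and gasdermins 0 were called, 9 lay above each EtOH library and 9 below each. *Bax* was at 40.1 and 31.7 and then 44.2, and *Bcl2* was below the minimum at 0.291 and 0.284 and then 0.312.

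Of 15 measured AP-1 and other immediate early genes 6 were called higher and 0 lower, beside 4.24% and 1.94% of all genes, 14 lay above each EtOH library, beside 49.9%, and the median was 0.58. *Jun* was at 7.85 and 7.97 FPKM in EtOH Nec-1 and 23.003 in 4-OHT Nec-1, *Fos* at 4.56 and 5.48 and then 17.3, and *Egr1* at 4.79 and 4.20 and then 16.0. These encode transcription factors induced by growth factors and stress. *Junb*, *Jund* and *Klf6* were called as well, with mean differences of 1.14, 1.17 and 1.33. *Atf3* was at 6.83 and 6.00 and then 9.001 and *Csrnp1* at 0.925 and 0.792 and then 1.40, above both EtOH libraries but not called, and *Fosb* was below the minimum at 0.0728 and 0.0976 and then 0.161. *Csrnp1* reached the minimum through the 4-OHT library alone. With no minimum, 17 of the 18 listed genes lay above each EtOH library and 0 below each. The AP-1 site TGANTCA, searched on both strands, was in 37 of 370 promoters of higher genes (10%), 8.51% of lower genes and 6.22% of genes at the minimum. Over all 27025 promoters it was in 8.97%. Of 16 measured p53 targets *Plk2* (1.98 and 1.75, then 5.90) was the 1 called higher, beside 4.24% of all genes, and *Cdkn1a*, the cell cycle inhibitor p21, was at 94.1 and 90.4 and then 95.6. The integrated stress response and ER chaperone lists had 0 calls in either direction among 16 measured members each, with medians of -0.016 and -0.11. The heat shock genes *Hspa1a* (0.675 and 0.774, then 2.99) and *Hspa1b* (1.54 and 1.02, then 4.90) were called higher, and they are near-identical copies between which reads are uncertain. *Hspa1a* reached the minimum through the 4-OHT library alone.

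Growth factor ligands and injury genes were followed next. In a list of EGFR ligands and feedback genes, chosen after the data were seen, 6 of 14 measured members were called higher and 0 lower. Over all genes 4.24% were called higher and 1.94% lower. The list's median was 0.96, and 3 of the 6 (*Btc*, *Errfi1* and *Spry2*) lost the call when libraries were centred on their median. *Areg*, the ligand amphiregulin, was at 115 and 112 FPKM in EtOH Nec-1 and 508 in 4-OHT Nec-1, 4.48-fold higher, beside 533 and 621 in 4-OHT DMSO. *Ereg*, epiregulin, was at 5.35 and 5.42 and then 25.03, and *Btc*, betacellulin, at 9.77 and 10.5 and then 22.6. For *Ereg* the value in 4-OHT Nec-1 lay above those of 4-OHT DMSO (19.7 and 21.7), and for *Areg* below them. The feedback genes *Dusp5* (6.92 and 7.02, then 27.2), *Errfi1* (10.9 and 12.2, then 26.4) and *Spry2* (4.97 and 5.15, then 11.3), which dampen receptor and ERK signalling, were called too. In this list 2 of 14 members had both differences under Nec-1 below all 4 DMSO differences and 2 above.

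All 16 measured genes of the regenerative and fetal-like list lay above each EtOH library, beside 49.9% of all genes. By the call rule 8 were higher, beside 4.24% of all genes (median 1.20, without Nec-1 1.97). The 8 include *Areg* and *Ereg*, which are also counted among the EGFR calls above, so the calls of these lists are not separate. *Ly6a* (ENSMUSG00000075602), the Sca-1 antigen of injured epithelium, was at 12.1 and 8.50 FPKM in EtOH Nec-1 and 135 in 4-OHT Nec-1, 13.1-fold higher. *Clu*, a marker of revival stem cells, was at 2.67 and 2.19 and then 9.28. *Anxa1* was at 4.16 and 3.78 and then 15.6, and *Anxa10* at 4.79 and 3.60 and then 26.5. In these 4 genes the 4-OHT Nec-1 value lay between EtOH Nec-1 and 4-OHT DMSO, and in 11 of the 16 both differences under Nec-1 lay below all 4 without it. *Sprr1a*, a squamous envelope gene, was at 32.8 and 30.7 and then 122, beside 148 and 169 in 4-OHT DMSO. *Ly6a* is also interferon-responsive, as is *Ly6e* (10.1 and 20.2, then 23.3), and how much of their difference belongs to either list was not tested.

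**Figure D3:**
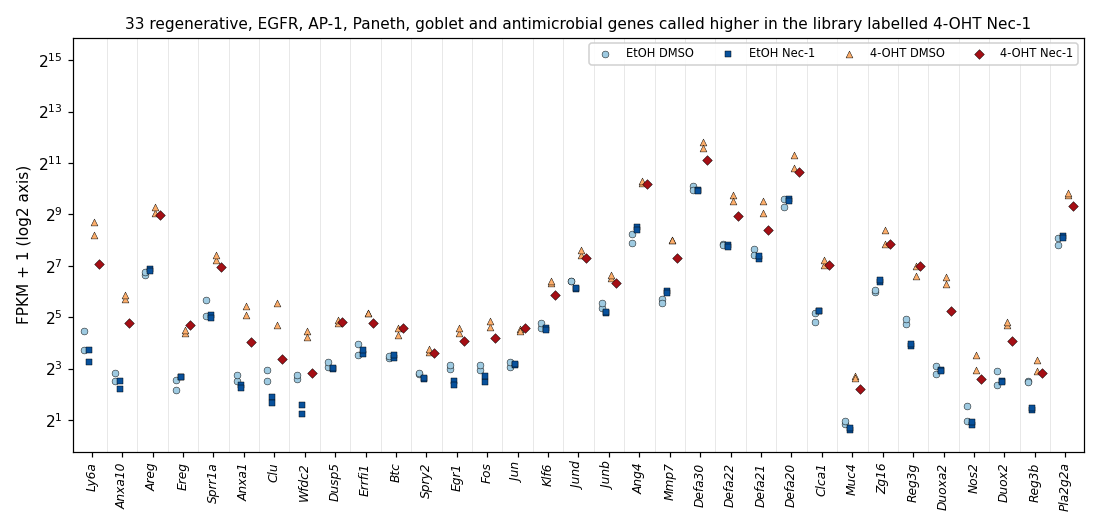
FPKM + 1 on a log2 axis in each of the 7 libraries for 33 genes called higher under Nec-1 from the regenerative, EGFR, AP-1, Paneth, goblet and antimicrobial lists, in that order. For every gene the 4-OHT Nec-1 diamond lies above both EtOH Nec-1 squares, and for *Ereg*, *Reg3g* and *Jun* among others it reaches the 4-OHT DMSO triangles.

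Paneth, goblet and enteroendocrine markers leaned higher, and tuft markers did not. Among 19 Paneth markers, all at the minimum, 6 were called higher and 0 lower (4.24% and 1.94% of all genes), 18 lay above each EtOH library (49.9% of all genes) and the median was 0.75. *Ang4*, a bactericidal ribonuclease, was at 365 and 337 FPKM in EtOH Nec-1 and 1164 in 4-OHT Nec-1, close to the 1179.5 and 1269 of 4-OHT DMSO. *Mmp7*, which activates defensins, was at 64.4 and 59.6 and then 159, and *Lyz1*, the Paneth lysozyme, at 944 and 859 and then 1518. The called defensins *Defa20*, *Defa21*, *Defa22* and *Defa30* had mean differences of 1.07 to 1.16, and all 4 lost the call when libraries were centred on their median. Defensin genes are near-identical, and their single values are uncertain. In bulk RNA more cells of a type and more RNA per cell cannot be told apart. Of 16 goblet markers 14 lay above each EtOH library and 1 below each, and the list's median was 0.52. By the call rule 3 were higher, where 4.24% of all genes were. These were the chloride channel regulator *Clca1* (36.6 and 37.1, then 129.7), the lectin *Zg16* (81.5 and 87.0, then 227) and the mucin *Muc4* (0.542 and 0.627, then 3.66). *Muc4* was 1 of 2 goblet markers that reached the minimum through the 4-OHT library alone. With no minimum, 14 goblet markers lay above each EtOH library and 1 below each. *Muc2*, the main secreted mucin, was at 19.7 and 19.3 and then 33.2, above both EtOH libraries but not called. Of 17 measured enteroendocrine markers 0 were called, although 16 lay above each EtOH library, beside 49.9% of all genes, with a median of 0.69. Among the 16 were the hormone genes *Gip* (135 and 159, then 281) and *Gcg* (70.7 and 68.5, then 110.5) and the granin *Chgb* (147 and 156, then 302). Of the 17, 1 reached the minimum through the 4-OHT library alone. With no minimum, 16 of 18 enteroendocrine markers lay above each EtOH library and 1 below each. Tuft markers had 6 measured members, 0 calls, 2 members above each EtOH library and 3 below each, and a median of -0.035.

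Antimicrobial and oxidase genes of the surface epithelium were called in 6 of 10 measured members, all higher, where 4.24% of all genes were called higher. *Reg3g* (ENSMUSG00000030017) was at 13.6 and 14.5 FPKM in EtOH Nec-1 and 128 in 4-OHT Nec-1, 9.13-fold higher, and at 25.4 and 29.3 in EtOH DMSO and 128 and 97.2 in 4-OHT DMSO. The EtOH libraries were thus lower with Nec-1 than without it, and the 4-OHT library was not. *Duoxa2* and *Duox2*, which form the epithelial hydrogen peroxide generator, were at 6.71 and 6.53 and then 37.0 and at 4.72 and 4.63 and then 16.0. *Nos2*, *Reg3b* and *Pla2g2a* were the other called members, at 0.755 and 0.869 and then 5.04, 1.64 and 1.74 and then 6.01, and 286 and 272 and then 633. *Nos2* reached the minimum through the 4-OHT library alone. *Pigr*, the antibody carrier, was the listed member below each EtOH library, at 625 and 636 and then 373.

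Stem cell and proliferation genes showed no common direction, and Wnt targets leaned higher. Of 14 measured stem cell markers 2 were called higher and 1 lower, with a median of 0.084 that turned negative when libraries were centred. *Olfm4*, a crypt base marker, was at 18.3 and 16.0 FPKM in EtOH Nec-1 and 3.42 in 4-OHT Nec-1, 5.02-fold lower, beside 24.3 and 21.4 in EtOH DMSO and 15.7 and 9.22 in 4-OHT DMSO. *Cd44* was at 2.65 and 2.88 and then 8.10, and *Aqp4*, which lost the call with median centring, at 7.18 and 7.71 and then 17.9. *Lgr5*, the defining stem cell receptor, was under the minimum at 0.729 and 0.710 and then 0.408. Of 12 measured Wnt targets 9 lay above each EtOH library and 3 below each, beside 49.9% and 38.8% of all genes, with a median of 0.31. By the call rule 2 were higher, *Cd44* and *Sp5*, and 1 lower. *Sp5* was at 0.505 and 0.421 and then 2.49, and *Notum*, a secreted Wnt inhibitor, at 2.12 and 1.81 and then listed at 0. *Sp5* was 1 of 2 Wnt targets that reached the minimum through the 4-OHT library alone, and *Notum* reached it through the EtOH libraries alone. With no minimum, 11 of 16 Wnt targets lay above each EtOH library and 5 below each. *Cd44* counts in both the stem cell and the Wnt list. *Axin2* was at 7.33 and 6.96 and then 6.42. Of 25 proliferation genes *Ccne1*, cyclin E1, was the 1 called (1.57 and 1.39, then 4.801), the median was -0.039, and 10 lay above each EtOH library and 12 below each.

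**Figure D4:**
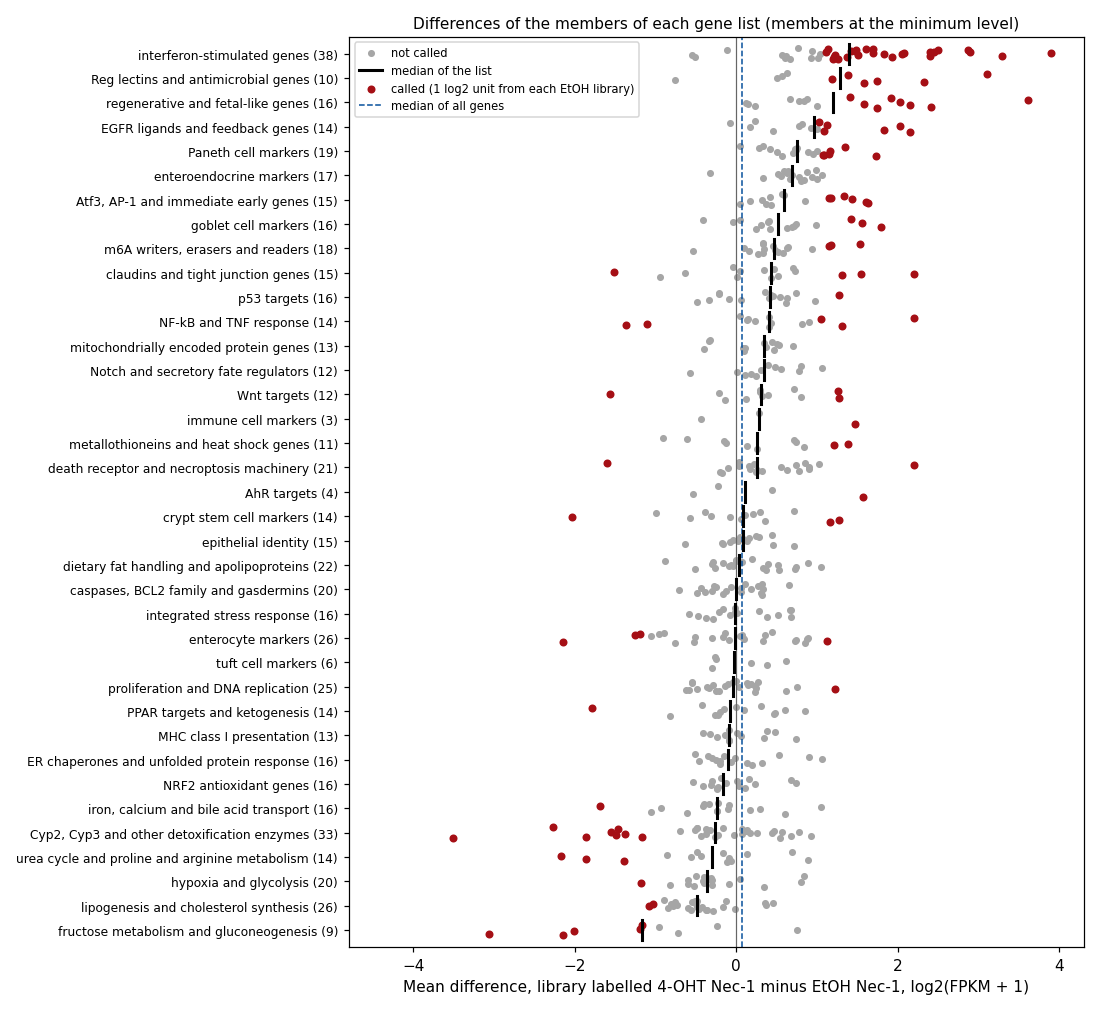
Mean difference of the 4-OHT Nec-1 library from the EtOH Nec-1 libraries (log2(FPKM + 1), horizontal axis) for the members of 37 gene lists that reached the minimum, with the number of members in brackets, called members in red and a black bar at each list's median. Medians run from -1.17 for fructose metabolism and gluconeogenesis to 1.39 for interferon-stimulated genes, beside a median of all genes of 0.067.

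Several enzymes of sugar and amino acid metabolism were called lower. In a list of fructose metabolism and gluconeogenesis, chosen after the data were seen, 5 of 9 measured members were called lower, beside 1.94% of all genes, and 0 higher, 8 lay below each EtOH library, 1 lay above each and the median was -1.17. The pathway takes fructose up, phosphorylates it and splits it in the enterocyte. *Khk*, ketohexokinase, its entry step, was at 152 and 151 FPKM in EtOH Nec-1 and 36.9 in 4-OHT Nec-1, 4.11-fold lower. *Tkfc*, triokinase, was at 310.2 and 311 and then 137, and the sugar transporter *Slc2a2* at 9.80 and 9.94 and then 3.75. *Fbp1* is given above. For all 9 measured members both differences under Nec-1 lay above all 4 DMSO differences, beside 22.0% of all genes, and the median without Nec-1 was -1.80. In a list of the urea cycle and proline and arginine metabolism, also chosen after the data were seen, 3 of 14 were called lower and 0 higher, 10 lay below each EtOH library and 3 above each (median -0.31). *Oat*, ornithine aminotransferase, was at 848 and 857 and then 188, *Cps1*, which makes carbamoyl phosphate, at 189 and 184 and then 50.6, and the arginase *Arg2* at 80.9 and 94.9 and then 32.8.

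Detoxification enzymes of the Cyp2, Cyp3, carboxylesterase and transferase families were called in the lower direction or not at all. Of 33 measured members 8 were called lower and 0 higher, beside 1.94% and 4.24% of all genes, with a median of -0.26. For 28 of the 33 both differences under Nec-1 lay above all 4 DMSO differences, beside 22.0% of all genes. *Nr1i3*, the nuclear receptor CAR that controls many of these genes, was at 22.6 and 23.2 FPKM in EtOH Nec-1 and 7.68 in 4-OHT Nec-1. Its relative *Nr1i2*, PXR, was at 23.2 and 24.02 and then 24.7. *Cyp2b10*, a classic CAR target, was at 56.3 and 52.0 and then 18.6, and in DMSO at 14.0 and 11.5 in EtOH and 3.40 and 3.18 in 4-OHT. *Cyp3a25* was at 68.8 and 67.9 and then 22.6, and in DMSO at 4.57 and 5.05 and then 1.32 and 1.29. Both genes were thus higher with Nec-1 than with DMSO in either arm, and lower in 4-OHT than in EtOH in either medium. The carboxylesterases *Ces1f* (327 and 330.0, then 146) and *Ces1g* (56.5 and 58.1, then 15.03) and the glucuronosyltransferase *Ugt2b5* (45.0 and 47.2, then 8.76) were lower too. Other abundant members were not: *Cyp2c66* was at 184 and 189 and then 196, and *Gsta1* at 1679 and 1735 and then 2524, above both EtOH libraries. These families hold close copies, and reads may be split among them.

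*Cyp1a1* (ENSMUSG00000032315), a classic target of the aryl hydrocarbon receptor (AhR), was near 0 in all 4 DMSO libraries (0.018 to 0.322 FPKM). It was at 57.4 and 56.0 in EtOH Nec-1 against 169.8 in 4-OHT Nec-1, 2.99-fold higher. Of the 4 listed AhR targets under the minimum 3 lay above each EtOH library and 1 below each, with *Cyp1b1* at 0.0431 and 0.2504 and then 1.88, *Cyp1a2* at 0.245 and 0.259 and then 0.806, and the AhR repressor *Ahrr* at 0.106 and 0.0812 and then 1.26, and *Aldh3a1* at 0.0607 and 0.0571 and then 0.0264. The list had 4 measured members, 2 above each EtOH library (*Cyp1a1* and *Tiparp*) and 2 below each. The latter were *Nqo1*, shared with NRF2, at 322 and 318 and then 220.4, and the glucuronosyltransferase *Ugt1a6a*, at 44.1 and 40.0 and then 35.7. The list had a median of 0.11 that turned negative with centring. For *Cyp1a1* too, an effect of 4-OHT itself and of the genotype cannot be told apart.

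Promoters of *Cyp1a1* and of the lower gene *Cyp2c68* (41.0 and 40.6 FPKM in EtOH Nec-1, 15.1 in 4-OHT Nec-1) are printed in the same way from RefSeq, GRCm38.p6. Both genes were called, but *Cyp1a1* was the 1 called member of the AhR list, which had no common direction. In *Cyp1a1*, at chr9:57697363-57697662 on the plus strand, the capitals mark the AhR core GCGTG, 54 bases before the start. In *Cyp2c68*, at chr19:39741052-39741351 on the minus strand, they mark the site TGGACTTTG of HNF4, a factor of enterocyte genes, read as its reverse complement 77 bases before the start.
*Cyp1a1*: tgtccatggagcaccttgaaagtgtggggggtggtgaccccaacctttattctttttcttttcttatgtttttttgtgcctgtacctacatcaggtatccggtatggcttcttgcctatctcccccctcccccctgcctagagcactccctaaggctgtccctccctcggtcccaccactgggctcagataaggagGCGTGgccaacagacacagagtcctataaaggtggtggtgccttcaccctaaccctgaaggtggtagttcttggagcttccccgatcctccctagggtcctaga
*Cyp2c68*: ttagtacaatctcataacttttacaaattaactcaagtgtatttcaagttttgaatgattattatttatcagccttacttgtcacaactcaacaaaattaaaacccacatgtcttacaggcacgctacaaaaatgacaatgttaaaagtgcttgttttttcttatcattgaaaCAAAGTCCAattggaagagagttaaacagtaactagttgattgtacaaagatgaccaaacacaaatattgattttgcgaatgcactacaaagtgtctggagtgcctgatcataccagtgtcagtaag

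The AhR core was in 50.8% of promoters of higher genes, 38.3% of lower genes and 57.3% of genes at the minimum, so it was no more frequent in called genes. The HNF4 site, searched on both strands and chosen after the data were seen, was in 7 of 141 promoters of lower genes (4.96%), in 5 of 370 of higher genes (1.35%) and in 0.639% of genes at the minimum. The 7 lower genes were *Sult1b1*, *Nat8*, *Neu3*, *Pipox*, *H2-T3*, *Cyp2c68* and *Cyp2c70*. *Hnf4g*, like *Hnf4a*, was not called, at 43.7 and 40.7 FPKM in EtOH Nec-1 and 44.7 in 4-OHT Nec-1.

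Absorptive markers otherwise split. Of 26 measured enterocyte markers 1 was called higher and 3 lower, 11 lay above each EtOH library and 12 below each, and the median was -0.022, compared with -0.49 without Nec-1. *Sis*, sucrase-isomaltase, was at 284 and 266 FPKM in EtOH Nec-1 and 114 in 4-OHT Nec-1, and *Slc5a1*, the glucose carrier, at 139 and 138 and then 74.1. *Anpep*, aminopeptidase N, was called higher, at 28.4 and 26.2 and then 60.8, and lost the call with median centring. *Alpi*, alkaline phosphatase, was at 76.0 and 78.1 and then 22.3 and 30.3 in DMSO and at 73.6 and 83.9 and then 54.2 under Nec-1, not called. *Fabp1*, a fatty acid carrier, was at 339.6 and 359 in EtOH Nec-1 against 647 in 4-OHT Nec-1 but at 471 and 427 and then 328 and 394 in DMSO, so the direction turned. Of 22 measured genes of dietary fat handling 0 were called. Of 14 measured PPAR targets 1 was called lower and 0 higher, with a median of -0.082.

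Lipid synthesis and glycolysis genes leaned lower with small differences. Of 26 measured genes of lipogenesis and cholesterol synthesis 23 lay below each EtOH library (38.8% of all genes did), 2 were called lower and 0 higher, and the median was -0.49. *Idi1*, an isoprenoid enzyme, was at 132 and 118 FPKM in EtOH Nec-1 and 58.3 in 4-OHT Nec-1, and *Scd1* at 165 and 157 and then 94.3. *Mid1ip1*, a regulator of acetyl-CoA carboxylase, turned direction, at 90.5 and 91.2 and then 43.9 under Nec-1 but 27.1 and 31.4 and then 122 and 134 in DMSO. Of 20 genes of hypoxia and glycolysis 16 lay below each EtOH library (median -0.37), with *Gapdh* the 1 called (22.2 and 26.8, then 10.2). Its DMSO values were 34.2 and 31.5 in EtOH and 12.7 and 52.2 in 4-OHT, so the 4-OHT replicates lay on either side of the EtOH libraries, and *Gapdh* has many processed copies that share reads. *Pgk1* was at 1048 and 1044 and then 815. *Slc11a2*, the iron importer, was at 42.9 and 52.1 and then 13.9 and was called lower, and *S100g*, a calcium binding protein, was at 308 and 348 and then 172.

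**Figure D5:**
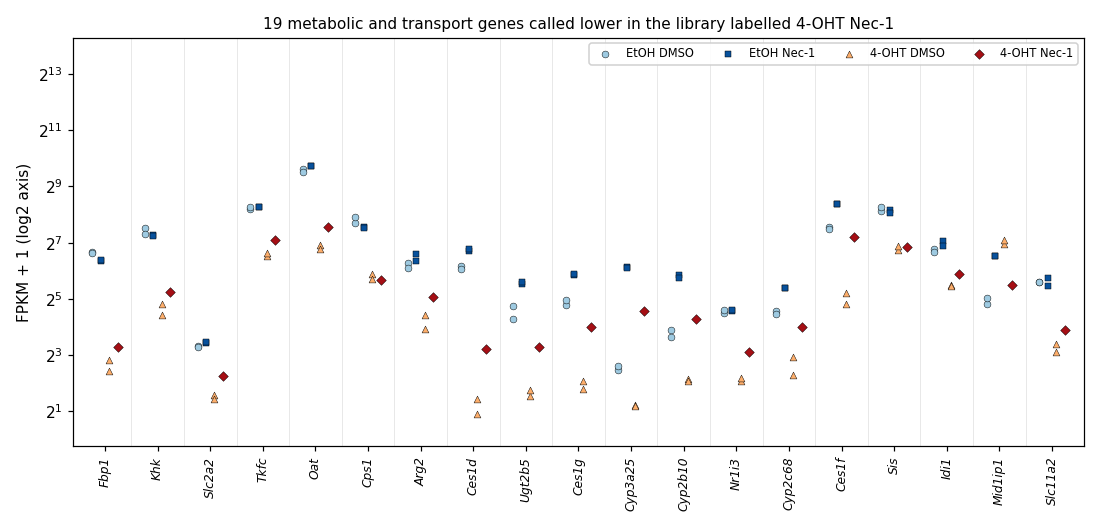
FPKM + 1 on a log2 axis in each of the 7 libraries for 19 metabolic and transport genes called lower under Nec-1, grouped by list from fructose metabolism on the left to iron transport on the right. Each 4-OHT Nec-1 diamond lies below both EtOH Nec-1 squares, and *Mid1ip1* is the gene whose 4-OHT DMSO triangles lie above its EtOH DMSO circles.

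Junction, m6A and mitochondrial genes complete the lists. Among 15 measured claudin and tight junction genes, a list chosen after the data were seen, 3 were called higher and 1 lower. *Cldn4* was at 85.3 and 81.2 FPKM in EtOH Nec-1 and 386 in 4-OHT Nec-1, *Cldn3* at 256 and 248 and then 737, and *Cldn23* at 9.19 and 7.17 and then 21.6, while *Cldn8* was at 2.86 and 2.83 and then 0.343. Claudins set the permeability of the paracellular seal. Of 18 measured m6A genes 17 lay above each EtOH library, where 49.9% of all genes did, with a median of 0.47, and the 3 called were readers of the mark, of which *Ythdf1* and *Ythdc1* lost the call with median centring. *Ythdf2*, which promotes decay of marked mRNA, was at 9.74 and 8.88 and then 28.8, *Ythdf1* at 9.51 and 11.2 and then 24.6, and the nuclear *Ythdc1* at 2.88 and 3.49 and then 8.24. *Mettl14*, the partner of METTL3, was at 2.70 and 2.84 and then 3.21. Of 13 mitochondrially encoded protein genes 0 were called, 10 lay above each EtOH library, and their sum was 86247 and 81342 FPKM in EtOH Nec-1 and 86941 in 4-OHT Nec-1. Notch and secretory fate regulators (12 measured, median 0.35) and NRF2 antioxidant genes (16 measured, median -0.16) had 0 calls, and none of 12 gastric epithelium genes reached the minimum.

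Gene spans were compared as well. In RefSeq (GRCm38.p6) the genes called higher spanned a median of 10144 bp (473 of 498 matched), those called lower 15225 bp (196 of 228 matched) and all genes at the minimum 18413 bp (11128 matched), from the first to the last annotated base. The interquartile range was 3884 to 24702 bp for the higher and 6741 to 43376 bp for all genes, so that the ranges overlap widely. Among protein-coding genes alone, the median was 10807 bp for the higher genes (446 matched) and 21277 bp for the lower ones (156 matched). For all protein-coding genes at the minimum it was 21974 bp (9889 matched), close to that of the lower genes. These spans are a description without a test.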

How the data were processed

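RNA was measured in 7 libraries of small intestinal organoids, of which 3 carry the comparison and 4 in DMSO stand beside it. The 2 CUT&Tag samples were not analysed here. The authors deposited FPKM per gene, and the submitters' processing notes name HISAT2 2.1.0 and StringTie 1.3.3b without their settings, so how reads shared between near-identical genes were assigned is not given in the sources used here. FPKM carry no fragment counts, so no count model was used. Values were joined by gene identifier, 54723 of 54838 identifiers had a symbol, 2 columns held repeats that differed by at most 5e-06 FPKM, and groups were taken from the sample labels.

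Genes whose mean over the 3 libraries reached 1 FPKM were kept and compared as log2(FPKM + 1). A gene was called when both differences reached 1 log2 unit in the same direction. The DMSO comparison used all 4 pairings on the same genes. The script was tested on simulated data. Values were computed with pandas 2.3.3 on numpy 2.4.6 under Python 3.11.15, and drawn with matplotlib 3.10.9.

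The comparison and its gene lists were chosen with earlier results of these data known. The lists of fructose metabolism, the urea cycle, EGFR ligands and claudins, the HNF4 site and the counts of differences beyond all 4 DMSO differences were added after the values were seen. Named genes were *Mettl3*, the 15 higher and 15 lower called genes with the largest smaller-of-2 differences (leaving out Gm-numbered, Rik, pseudogene, mitochondrial tRNA and rRNA and unnamed genes), called list members, genes the study names in its text and, for lists with few calls, their abundant members. Other genes named in the text, such as low AhR targets and the members below the minimum, were chosen after their values were seen. Promoters came from RefSeq on GRCm38.p6, and whether that annotation matches the one behind the FPKM was not checked. Values of some single genes are not reported here, although list counts and medians include them. Alternatives covered scaling, pseudocount, minimum, threshold and left-out libraries.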

Additional observations from a re-analysis of the deposited data

Results flagged for a closer look

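For 7 of the genes chosen by the naming rule, the library labelled 4-OHT Nec-1 moved 1 way against both EtOH Nec-1 libraries and the libraries labelled 4-OHT DMSO moved the other way in all 4 pairings with EtOH DMSO. The difference between the settings was not tested, because 4-OHT Nec-1 has 1 library. For each setting the log2 difference that is smallest in size is given.

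*Exosc6*, an RNA exosome subunit, differed by -2.74 under Nec-1 (6.15 and 8.15 FPKM in EtOH Nec-1, 0.0711 in 4-OHT Nec-1) and by 0.31 without it. It was under 1 FPKM in every DMSO library. *Mid1ip1* differed by -1.03 under Nec-1 and by 1.92 without it, and its 7 values were well above 1 FPKM with replicates close together. The MHC class I genes *B2m* (-0.092 under Nec-1 and 0.60 without) and *H2-T23* (-0.022 and 1.03) had small differences under Nec-1 and clear ones without it. *Fabp1* differed by 0.85 under Nec-1 and by -0.12 without it. *Mttp*, which loads lipoproteins (0.067 and -0.15), and *Ehhadh*, a peroxisomal enzyme (0.086 and -0.038), were near 0 in both settings, and their mean differences under Nec-1 became -0.066 and -0.044 with median centring.

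Among all 726 called genes, 9 went in the opposite direction in all 4 DMSO pairings, *Exosc6* and *Mid1ip1* among them, and 2 did so by at least 1 log2 unit in both settings, *Mid1ip1* and *Gm10095*. The predicted gene *Gm10095* differed by 5.14 under Nec-1 and by -5.93 without it, and was listed at 0 in both 4-OHT DMSO libraries and in 1 EtOH Nec-1 library. *Lysmd3* differed by -1.90 and 0.62, *Tmem170b* by 1.86 and -0.79, and *Abl1* by -1.36 and 0.097. The remaining 3 were *Gm8034* (1.84 and -0.039), *Atp5k-ps2* (-1.32 and 0.013) and *Snora34* (-1.08 and 0.22), whose DMSO differences were small in at least 1 pairing. These differences were not tested either.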

How the results depend on the processing

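No paired analysis was possible because 4-OHT Nec-1 has 1 library and its groups share a single replicate number. Under Nec-1 the counts of higher and lower genes (498 and 228) became 753 and 379 with a pseudocount of 0.1, 296 and 137 with a minimum of 5 FPKM, 1450 and 798 at 1.5-fold, and 47 and 25 at 2 log2 units. Leaving out either EtOH Nec-1 library gave 659 to 664 higher and 292 to 303 lower, where a single pairing then has to pass. For the comparison without Nec-1, whose alternatives were chosen after seeing the data, the counts (511 and 270) became 303 and 172 at 5 FPKM, 1324 and 807 at 1.5-fold, and 75 and 45 at 2 log2 units, and the lower count became 431 with a pseudocount of 0.1. Leaving out 1 DMSO library gave 615 to 799 higher and 360 to 479 lower, with 799 and 479 without 4-OHT DMSO replicate 1 and 431 lower without 4-OHT DMSO replicate 2. Without genes whose DMSO replicates lay 1 log2 unit apart, an alternative chosen after seeing the data, 469 and 201 remained under Nec-1.

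Small list medians changed sign. With median centring and with upper quartile scaling, in that order, the crypt stem cell markers were at -0.051 and -0.022, the AhR targets at -0.028 and -0.023, dietary fat handling and apolipoproteins at -0.10 and -0.090, and epithelial identity at -0.053 and -0.052. Leaving out EtOH Nec-1 replicate 1 or 2, the caspases, BCL2 family and gasdermins were at 0.00038 to 0.0059, the integrated stress response at -0.077 to 0.033 and the tuft cell markers at -0.069 to 0.16. Of 125 called genes named, 15 lost the call with median centring and 14 with upper quartile scaling, among them *Trim25*, *Oasl1*, *Rela*, *Aqp4*, *Anpep*, *Ythdf1* and *Ythdc1*, and 0 with a pseudocount of 0.1 or without either EtOH Nec-1 library. The cause was not tested. Depth in fragments is unknown, and genes near 1 FPKM have an unknown counting error.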
